A study of Mus musculus with 8 samples.

Results

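The surface antigens compared here are the products of 9 mouse genes by which mesenchymal stem cells are recognised or sorted: *Ly6a* (Sca-1), *Thy1* (CD90), *Nt5e* (CD73), *Cd44*, *Eng* (endoglin, CD105), *Alcam* (CD166), *Cd200*, *Cdh2* (N-cadherin) and *Cdh11* (cadherin-11). They were picked by name and not by a threshold on a measured value, and all 9 are among the 15880 genes of the table. The study's own figure supplement had already shown *Ly6a* and further mesenchymal genes, which its text does not name, from these libraries. Counts over the 9 antigens are therefore a description and no independent evidence. The question asked of them was which separate the 4 sorted populations of newborn bone stroma and which do not.

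The pups were *Nes-Gfp* heterozygotes of the C57BL/6 strain on postnatal day 1, and their GFP is under the control of nestin regulatory elements, so it reports the transgene and not the *Nes* gene itself. The bones, pooled and crushed, were digested with collagenase. By the sample records they were bones of the limbs and shoulder blades, and by the series record long bones and sterna. After digestion cells carrying CD45 (blood), CD31 (endothelium) or Ter119 (red cells) were gated out. Sorting by GFP and by surface Pdgfrα then gave 4 populations, called here double-positive (GFP+ Pdgfrα+), Pdgfrα-only (GFP- Pdgfrα+), GFP-only (GFP+ Pdgfrα-) and double-negative (GFP- Pdgfrα-). Each population has 2 libraries, 8 in all, and each library comes from 1 pool of 3 pups and from 15000 to 80000 sorted cells, whose RNA was amplified as cDNA. All 4 populations share the same genotype, strain and age, and none was treated.

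No single surface protein marks a mesenchymal stem cell, and these cells are therefore described by a panel of antigens present together with the absence of blood and endothelial ones. The panel mixes functions. Sca-1, CD90 and CD73 are held in the membrane by a glycolipid (GPI) anchor, CD44 is the main receptor for hyaluronan in the matrix, and endoglin is a co-receptor for ligands of the TGF-β and BMP family. CD166 and CD200 belong to the immunoglobulin superfamily and bind partners on other cells, while N-cadherin and cadherin-11 join cells to cells of the same kind through calcium-dependent contacts and are known from mesenchymal condensations and osteoblasts.

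The values are the authors' normalized signal, obtained by adding 0.5 to the reads of a gene and dividing by an effective library size, per 1e6. Reads on genes summed to 3564158 and 3329432 in the double-positive libraries and to 3869275 and 3221217 in the Pdgfrα-only libraries. The GFP-only libraries held 3644103 and 3427644 reads and the double-negative libraries 4058258 and 5302762. In these libraries 3 reads correspond to a value of 0.825 to 1.04, and a gene with at most 3 reads in both libraries of a population is called at the floor there. Floors and counting intervals cover the error of counting reads only, and the p-values measure the spread between pools of pups. A difference was called when its adjusted p-value in limma, two-sided and adjusted over all 15880 genes, was at most 0.05, and folds are given as differences of log2(value + 1) with their standard error. An exact permutation test of 2 libraries against 2 cannot go below 0.333, so single differences rest on the spread that limma pools over genes. In bulk RNA, fewer cells of a type and less RNA per cell cannot be told apart, and this holds for every difference below.

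The sort itself was visible in the RNA. *Pdgfra*, the gene of the receptor used for sorting, had mean values of 744 ± 14.9 (SD, n = 2) in double-positive and 816 ± 31.8 in Pdgfrα-only cells, against 14.3 ± 5.42 in GFP-only and 3.83 ± 0.749 in double-negative cells. It was higher by 5.66 ± 0.22 within the GFP+ populations (adjusted p = 2.64e-08 in limma) and by 7.41 ± 0.22 within the GFP- populations (adjusted p = 1.26e-10). *Nes*, whose regulatory elements drive the transgene, had 64.8 ± 10.2 in double-positive, 37.2 ± 13.9 in Pdgfrα-only, 162 ± 19.4 in GFP-only and 6.33 ± 3.88 in double-negative cells. It separated the Pdgfrα- populations by 4.58 ± 0.34 (adjusted p = 3.13e-07 in limma), while its difference of 0.82 ± 0.34 between the Pdgfrα+ populations was not called (adjusted p = 0.213). The gated-out lineages were low in most libraries. The mean of *Ptprc* (CD45) was at most 1.14 in the first 3 populations and 9.03 ± 3.27 in double-negative cells, and that of *Pecam1* (CD31) lay between 3.96 ± 0.0718 and 20.4 ± 10.7. The mitochondrial ribosomal RNA *mt-Rnr2* took between 9.52% and 10.8% of the reads in the Pdgfrα+ libraries, 17.6% and 15.6% in the GFP-only libraries and 27.2% and 29.1% in the double-negative libraries. Genes without a read made up 12.4% and 10.7% of the table in the double-negative libraries and at most 5.06% in the others. The part of these features in the differences of the antigens was not tested.

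All 9 antigens differed somewhere among the 4 populations by the moderated F test of limma, as did 66% of all genes. Of the 54 tests of a pair of populations, 45 were called. Of all 15880 genes, 849 were called between the Pdgfrα+ populations, 8527 between the Pdgfrα-, 3848 between the GFP+ and 9476 between the GFP- populations. Double-positive against double-negative cells gave 9410 called genes, and Pdgfrα-only against GFP-only cells gave 4427. *Alcam* and *Cdh11* separated every pair, *Ly6a*, *Cd44*, *Nt5e*, *Cd200* and *Cdh2* each missed 1 pair, and *Thy1* and *Eng* each missed 2. Their means were lowest in double-negative cells for 7 antigens and lowest in GFP-only cells for the other 2, *Ly6a* and *Eng*. The highest mean lay in Pdgfrα-only cells for *Ly6a*, *Thy1*, *Cd44* and *Nt5e*, in double-positive cells for *Cd200*, *Cdh2* and *Cdh11*, in GFP-only cells for *Alcam* and in double-negative cells for *Eng*. The share of all genes that separate as many pairs was not counted, nor was the share with their lowest or highest mean in a given population. These counts therefore describe the antigens and do not set them apart from other genes. The pairs with double-negative cells were those with the most called genes.

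**Figure D1:**
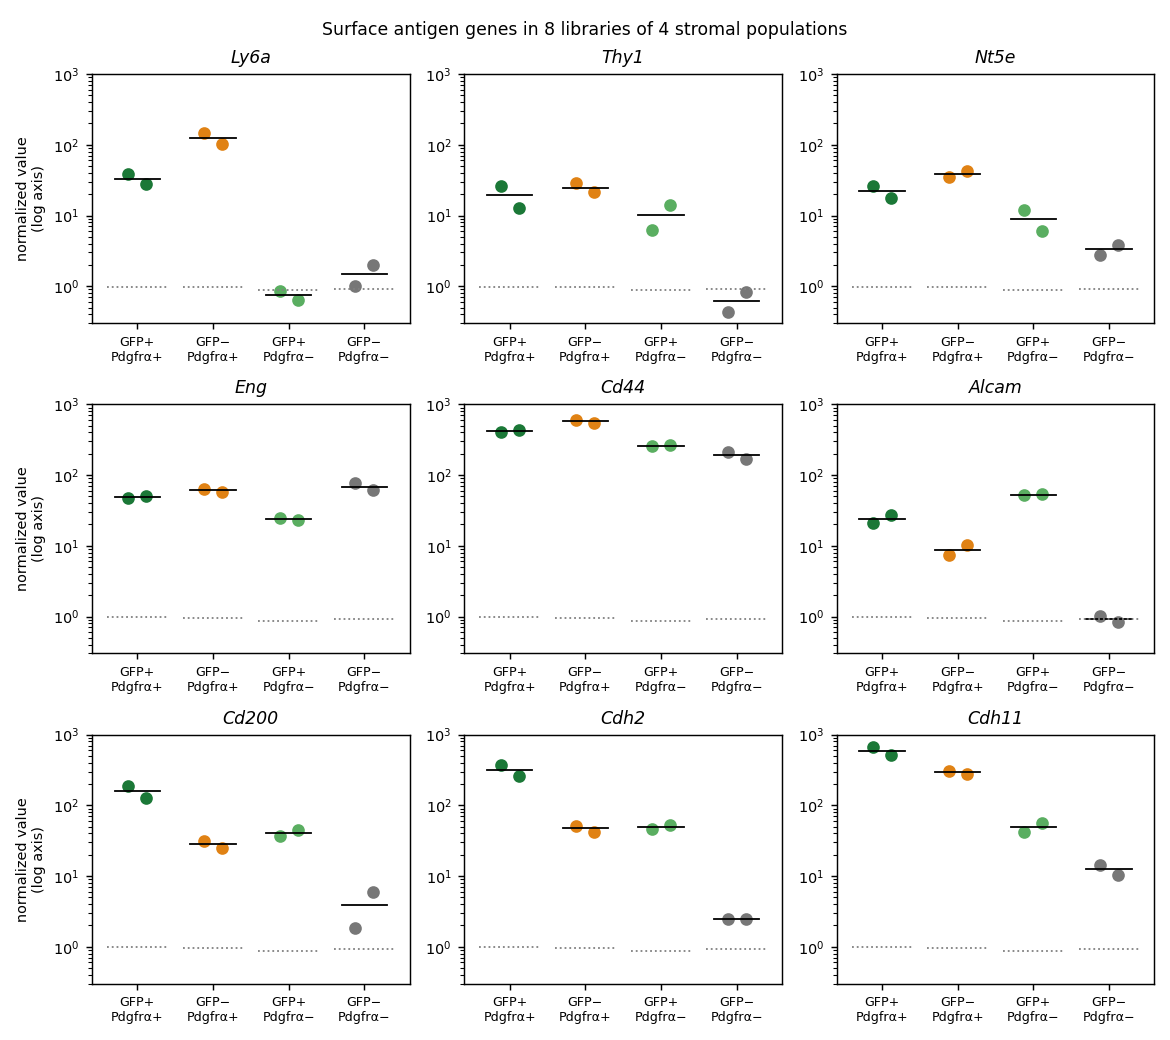
Normalized value of each antigen gene (y axis, log scale) in the 8 libraries, grouped by population (x axis). Dots are libraries, black bars the mean of the 2 libraries, and dotted lines the value of 3 reads; *Cd44* is at 169 or more in every library, whereas *Ly6a*, *Thy1* and *Alcam* reach the floor in 1 population each.

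The 2 Pdgfrα+ populations were the pair with the fewest called differences, among the antigens as among all genes. With double-positive cells compared with Pdgfrα-only cells, 4 antigens were higher (*Alcam*, *Cd200*, *Cdh2* and *Cdh11*), against 3.22% of all genes, and 1 was lower (*Ly6a*), against 2.13%. The median log2 fold change of the 9 was −0.31, and that of all genes was 0.00. The count of 5 called antigens rests on single libraries in part: it was 3 without the first or without the second double-positive library, 2 without the first or without the second Pdgfrα-only library, 4 without either GFP-only library and 6 without either double-negative library. Calls of *Cd200* and *Cdh2* were kept in each of these fits.

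Within the Pdgfrα- populations GFP went with larger and more numerous differences. In GFP-only cells 7 antigens were higher than in double-negative cells, as were 30.1% of all genes, while *Eng* was lower, as were 23.6% of all genes, and *Ly6a* was not called. The median over the 9 was 1.90, beside 0.15 over all genes. Within the GFP+ populations, 7 antigens were higher in double-positive than in GFP-only cells (13.1% of all genes), *Alcam* was lower (11.1% of all genes) and *Thy1* was not called, with a median of 1.25 beside −0.02. Within the GFP- populations, 8 antigens were higher in Pdgfrα-only than in double-negative cells (32.9% of all genes), 0 were lower (26.8% of all genes; in limma the count is also 0 at an unadjusted p under 0.05, and 0 in edgeR) and *Eng* was not called, with a median of 3.23 beside 0.17.

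Along the diagonals, double-positive cells had 8 antigens higher than double-negative cells, against 32.9% of all genes, and 1 lower, *Eng*, against 26.4%, and the median of the 9 was 3.70 beside 0.20. Between the single-positive populations, 6 antigens were higher in Pdgfrα-only cells (14.3% of all genes), *Alcam* was higher in GFP-only cells (13.5%), and *Cd200* and *Cdh2* were not called. The median there was 1.30 beside −0.03. Setting the genes at the floor to their bound changed none of these medians of the 9.

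**Figure D2:**
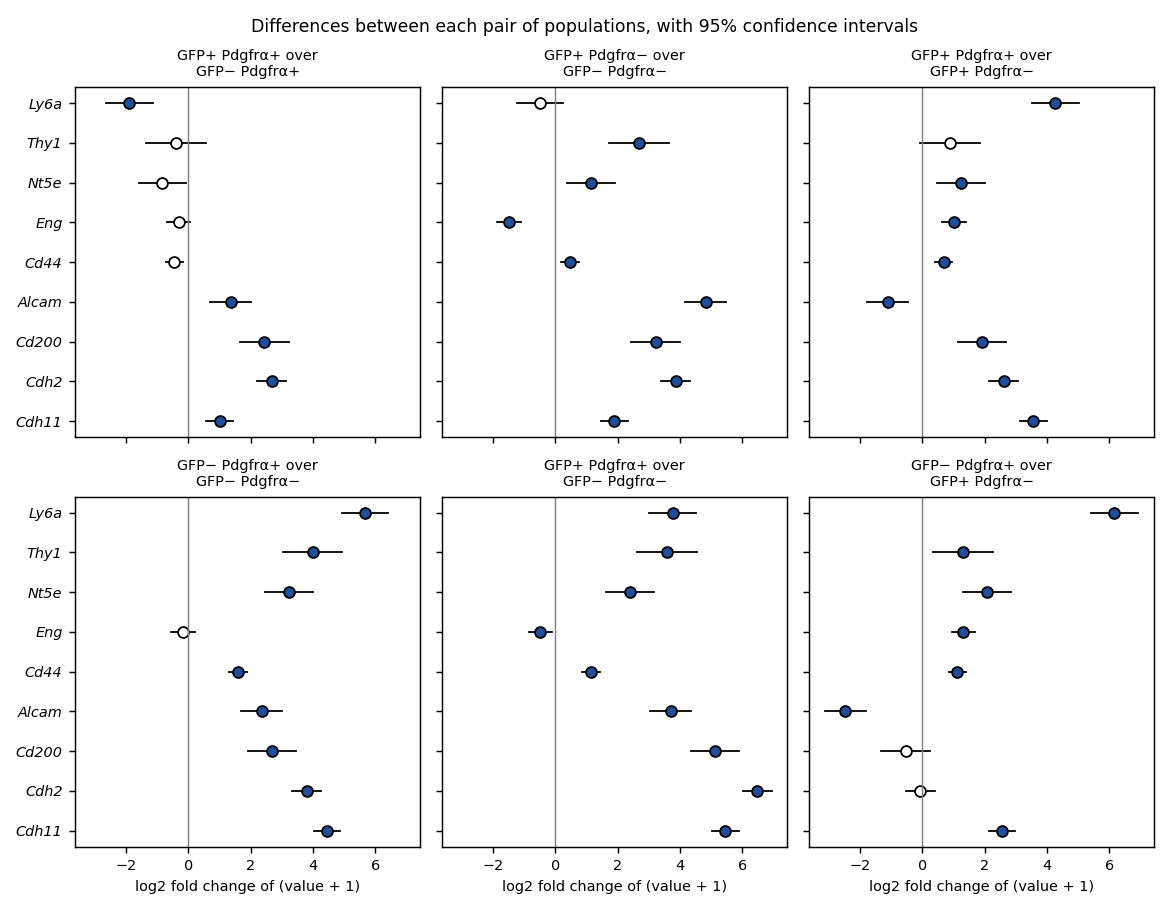
Difference in log2(value + 1) (x axis) of the 9 antigens (y axis) for each of the 6 pairs of populations. Points are limma estimates with unadjusted 95% confidence intervals, filled where the adjusted p-value is at most 0.05; the top left panel, which compares the Pdgfrα+ populations, holds 4 open points, more than any other.

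Of the GPI-anchored antigens, *Ly6a* (ENSMUSG00000075602, NCBIM37 chr15:74825308-74828064, minus strand) encodes Sca-1, which is used with Pdgfrα to sort mesenchymal stem cells from mouse marrow. Its values were 38.3 and 27.5 in the double-positive libraries, 148 and 102 in the Pdgfrα-only libraries, 0.850 and 0.643 in the GFP-only libraries and 1.01 and 2.00 in the double-negative libraries. Every Pdgfrα+ library was above every Pdgfrα- library, and the Pdgfrα-only libraries were above the double-positive ones without overlap. Between the Pdgfrα+ populations *Ly6a* fell by 1.89 ± 0.34 with GFP, a mean 3.81-fold higher in the GFP- population (adjusted p = 0.00714 in limma). That call was lost without the second double-positive library (adjusted p = 0.0692), the first Pdgfrα-only library (0.129) or the second Pdgfrα-only library (0.0531), within a range of 0.000108 to 0.129 over the alternatives. The GFP-only libraries held 3 and 2 reads of it, at the floor, and the double-negative libraries 3 and 8. On summed reads scaled to library size, the Pdgfrα-only population had 203 times the GFP-only level (95% exact interval 86.8 to 628) and the double-positive population 52.5 times (22.2 to 163). Against double-negative cells the ratio was 89.1 (49.6 to 179) for Pdgfrα-only cells and 23.0 (12.6 to 46.8) for double-positive cells. The Pdgfrα- populations were not separated by *Ly6a*, with a ratio of 0.438 (0.119 to 1.37) and an adjusted p of 0.25 in limma. At 5 reads against 11, differences within that interval were left unresolved. Of the windows of 30 bases in the *Ly6a* exons, 18.2% also occur in other annotated genes, mostly in the relatives *Ly6i*, *Ly6c1*, *Ly6c2* and *Ly6g*.

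The rest of the Ly6 family did not share one pattern. Its counts and medians, like those of the lists that follow, are to be read against the shares and medians of all genes given above. The shares called higher and lower were 3.22% and 2.13% in double-positive over Pdgfrα-only cells and 30.1% and 23.6% in GFP-only over double-negative cells. They were 13.1% and 11.1% in double-positive over GFP-only cells and 32.9% and 26.8% in Pdgfrα-only over double-negative cells. In Pdgfrα-only over GFP-only cells they were 14.3% and 13.5%. A count near these shares is no trait of a list. Of its 26 listed genes 11 are in the table, *Ly6a* included, and between the Pdgfrα+ populations 0 were higher and 3 lower in double-positive cells in limma (median 0.00, or 0.02 with genes at the floor set to their bound). At an unadjusted p under 0.05 the higher ones were 3, and in edgeR 0. From GFP-only to double-positive cells 5 were higher and 1 lower (median 0.94 on either count). *Ly6e*, a broadly expressed member, had its highest mean in double-negative cells, at 290 ± 1.86, against 65.2 ± 0.252 in double-positive, 102 ± 9.86 in Pdgfrα-only and 65.2 ± 8.32 in GFP-only cells. Its difference between the Pdgfrα- populations was −2.14 ± 0.15 (adjusted p = 1.56e-07 in limma). *Cd59a*, which protects cells from complement, also had its highest mean in double-negative cells (62.9 ± 0.679, against at most 11.9 ± 7.71 elsewhere) and differed by −2.70 ± 0.41 in the same comparison (adjusted p = 0.000139). *Lynx1*, a modulator of nicotinic receptors, was highest in the Pdgfrα+ populations as *Ly6a* was, with 36.8 ± 10.2 in Pdgfrα-only, 16.2 ± 2.73 in double-positive and 5.23 ± 0.669 in GFP-only cells, and was at the floor in double-negative cells. It was higher in Pdgfrα-only than in GFP-only cells by 2.58 ± 0.35 (adjusted p = 0.000186 in limma).

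*Thy1* (ENSMUSG00000032011, chr9:43851467-43856662, plus strand) encodes CD90, a small immunoglobulin-like protein of fibroblasts, neurons and T cells. Its values were 26.1 and 12.8 in the double-positive libraries, 28.4 and 21.2 in the Pdgfrα-only libraries, 6.19 and 14.0 in the GFP-only libraries and 0.431 and 0.825 in the double-negative libraries. The double-positive libraries overlapped both single-positive populations, which did not overlap each other, and the double-negative libraries, with 1 and 3 reads, stood apart at the floor. CD90 RNA divided double-negative cells from the rest, and the rest from each other little. Against double-negative cells the ratio of summed reads was 37.5 (95% exact interval 14.3 to 140) for double-positive cells, 48.2 (18.5 to 179) for Pdgfrα-only cells and 19.1 (7.15 to 71.6) for GFP-only cells. All 3 differences were called in limma, with adjusted p of 1.99e-05, 7.39e-06 and 0.000245. *Thy1* did not separate the Pdgfrα+ populations, with a difference of −0.40 (95% confidence interval −1.36 to 0.56, adjusted p = 0.695), whose sign turned, at 0.085, without the second double-positive library. Nor did it separate double-positive from GFP-only cells, with 0.90 (interval −0.06 to 1.86, adjusted p = 0.17). Between the single-positive populations it was higher in Pdgfrα-only cells by 1.30 ± 0.44 (adjusted p = 0.0456 in limma). The last call sat at the threshold and was lost in 6 alternatives, among them the fit with the replicate as a block (0.0501) and the fits without the first Pdgfrα-only library (0.234), the second Pdgfrα-only library (0.109) or the first GFP-only library (0.344), within a range of 0.0185 to 0.344.

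*Nt5e* (ENSMUSG00000032420, chr9:88222447-88266927, plus strand) encodes CD73, the ectoenzyme that turns extracellular AMP into adenosine. Its values were 26.1 and 17.7 in the double-positive libraries, 35.4 and 42.9 in the Pdgfrα-only libraries, 11.8 and 6.05 in the GFP-only libraries and 2.73 and 3.89 in the double-negative libraries. These values fell into 4 steps with no overlap between neighbouring populations. The lowest step was called, GFP-only over double-negative cells by 1.15 ± 0.35 (adjusted p = 0.0148 in limma), as was the middle one, double-positive over GFP-only cells by 1.25 ± 0.35 (adjusted p = 0.0222). The top step was not, with −0.83 from Pdgfrα-only to double-positive cells (95% confidence interval −1.59 to −0.07, adjusted p = 0.226). The call of the lowest step was lost without the first GFP-only library (0.161) or the first double-negative library (0.0752) and in voom, within a range of 0.00782 to 0.161, and that of the middle step without the first double-positive library (0.145) or the second GFP-only library (0.187), within 0.0127 to 0.187. The larger distances were called throughout the alternatives: *Nt5e* was higher in Pdgfrα-only than in double-negative cells by 3.23 ± 0.35 (adjusted p = 6.3e-06 in limma), in double-positive than in double-negative cells by 2.40 ± 0.35 (8.45e-05) and in Pdgfrα-only than in GFP-only cells by 2.08 ± 0.35 (0.000856).

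Other genes of extracellular nucleotide and adenosine handling had called differences in both directions, as had all genes. Of the 22 listed, 21 are in the table. In double-positive cells 7 were higher than in GFP-only cells and 1 lower (median 0.57 on either count of floor genes), beside 13.1% and 11.1% of all genes. Between the Pdgfrα+ populations 3 were higher and 0 lower (median 0.00, with 3 lower at an unadjusted p under 0.05 and 0 in edgeR), beside 3.22% and 2.13%. Between the Pdgfrα- populations 7 were higher in GFP-only cells and 6 lower (median −0.04), beside 30.1% and 23.6%. Those last counts are near the shares of all genes. *Enpp1*, which cleaves ATP to AMP and pyrophosphate, had 199 ± 43.2 in double-positive, 178 ± 2.21 in Pdgfrα-only, 33.5 ± 6.40 in GFP-only and 19.2 ± 2.30 in double-negative cells. It was higher in double-positive than in GFP-only cells by 2.53 ± 0.19 (adjusted p = 2.98e-06 in limma). *Alpl*, the tissue-nonspecific alkaline phosphatase, which is also on the osteoblast list, was higher in double-positive (250 ± 69.0) than in Pdgfrα-only cells (30.1 ± 6.17) by 3.00 ± 0.25 (adjusted p = 4.14e-05). The nucleoside transporter *Slc29a1* was lower in GFP-only (36.1 ± 6.12) than in double-negative cells (94.3 ± 3.19), by −1.37 ± 0.18 (adjusted p = 3.88e-05 in limma). *Enpp2* (autotaxin), a relative of *Enpp1*, had 34.2 ± 10.7, 70.6 ± 9.13, 22.3 ± 1.79 and 7.35 ± 4.11 in double-positive, Pdgfrα-only, GFP-only and double-negative cells. The receptors *Adora1*, *Adora2a* and *Adora2b* were at the floor in double-negative cells, *Adora1* also in double-positive cells and *Adora2a* also in Pdgfrα-only cells. They are named here because of that low count, after their values had been seen.

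The 26 listed genes of GPI-anchor synthesis and remodelling, all in the table, showed no called difference between the Pdgfrα+ populations in limma (median 0.08), and 0 in edgeR, while at an unadjusted p under 0.05 they numbered 4 higher and 1 lower. With GFP-only cells set against double-negative cells, 3 were higher and 9 lower (median −0.31), beside 30.1% and 23.6% of all genes. Within the GFP+ populations 3 were higher in double-positive cells and 1 lower (median 0.18), beside 13.1% and 11.1%. *Pigq*, a subunit of the enzyme that starts the anchor, had 412 ± 22.4 in double-negative cells against 44.4 ± 1.11 in GFP-only cells, a difference of −3.19 ± 0.17 between them (adjusted p = 2.12e-08 in limma), with 38.4 ± 3.30 and 33.8 ± 6.60 in double-positive and Pdgfrα-only cells. *Pigt* and *Pigs*, subunits of the transamidase that attaches the anchor, had means between 77.8 ± 5.12 and 112 ± 5.58 and between 27.4 ± 7.30 and 56.2 ± 1.60, and the mannosyltransferase gene *Pigm* lay between 41.1 ± 0.504 and 71.9 ± 4.84.

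*Cd44* (ENSMUSG00000005087, chr2:102651298-102741822, minus strand) encodes the hyaluronan receptor, with 14 annotated transcripts that the table does not tell apart. Its values were 409 and 431 in the double-positive libraries, 599 and 545 in the Pdgfrα-only libraries, 261 and 262 in the GFP-only libraries and 210 and 169 in the double-negative libraries. Abundant in all 8 libraries, *Cd44* was graded rather than present or absent, and no populations overlapped. Its highest mean was 3.01 times its lowest, a narrow span among the 9, which only *Eng* undercut at 2.89. The grading was nevertheless precise, with a standard error of 0.13 in limma. *Cd44* was higher in double-positive than in GFP-only cells by 0.68 (adjusted p = 0.00245), in Pdgfrα-only than in double-negative cells by 1.59 (4.99e-07), in double-positive than in double-negative cells by 1.15 (9.82e-06) and in Pdgfrα-only than in GFP-only cells by 1.13 (5.33e-05). The smallest called step, GFP-only over double-negative cells, was 0.47 (adjusted p = 0.00914 in limma), and it was lost without the second double-negative library (0.0657) and without a mean-variance trend (0.0914), within a range of 0.0019 to 0.0914. The first difference of 0.68 lost its call only without the trend (0.0549, in a range of 0.000504 to 0.0549). The difference of −0.44 between the Pdgfrα+ populations was not called (95% confidence interval −0.73 to −0.16, adjusted p = 0.0765), but it passed the threshold without the first (0.0275) or the second (0.0269) double-negative library, without both (0.0263) and in voom (0.0184), within a range of 0.0184 to 0.369.

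Around CD44, 23 of 25 listed genes of hyaluronan metabolism and binding, CD44 ligands, membrane linkers and sheddases are in the table. With double-positive cells set against GFP-only cells, 10 were higher and 3 lower (median 0.58, or 0.46 with floor genes at their bound), beside 13.1% and 11.1% of all genes. Comparing the Pdgfrα+ populations, 3 were higher and 4 lower in double-positive cells (median −0.31, or −0.25), beside 3.22% and 2.13%. Between the Pdgfrα- populations 5 were higher and 9 lower in GFP-only cells (median 0.10, or 0.04), beside 30.1% and 23.6%. *Vcan*, the hyaluronan-binding proteoglycan versican, ran in the order of *Cd44*, at 2450 ± 198, 3596 ± 449, 596 ± 27.5 and 24.1 ± 11.5 in double-positive, Pdgfrα-only, GFP-only and double-negative cells, and was higher in double-positive than in GFP-only cells by 2.04 ± 0.24 (adjusted p = 6.69e-05 in limma). *Mmp14*, a membrane protease that can cleave CD44, had 403 ± 6.92, 522 ± 13.6, 100.4 ± 21.6 and 41.6 ± 2.64 in the same order of populations, with a difference of 2.01 ± 0.15 between double-positive and GFP-only cells (adjusted p = 2.76e-06). *Spp1* (osteopontin), a ligand of CD44 and a bone matrix protein, departed from that order. It had 4982 ± 1508 in double-positive cells against 231 ± 79.8 in Pdgfrα-only cells, a difference of 4.44 ± 0.24 (adjusted p = 1.34e-06 in limma). The linker moesin (*Msn*) lay between 401 ± 36.2 and 711 ± 72.1 in all 4 populations.

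*Eng* (ENSMUSG00000026814, chr2:32502115-32538189, plus strand) encodes endoglin, which is also abundant on endothelium and present on red cell precursors. Its values were 47.9 and 49.9 in the double-positive libraries, 63.7 and 58.4 in the Pdgfrα-only libraries, 24.4 and 23.3 in the GFP-only libraries and 76.0 and 61.7 in the double-negative libraries. The GFP-only libraries were lowest, the double-positive ones came next without overlap, and the Pdgfrα-only and double-negative libraries overlapped at the top. *Eng* was the one antigen of the 9 with its highest mean in double-negative cells. *Eng* was lower in GFP-only than in double-negative cells (−1.48 ± 0.17, adjusted p = 1.68e-05 in limma), and higher in double-positive than in GFP-only cells by 1.01 ± 0.17 (0.00132) and in Pdgfrα-only than in GFP-only cells by 1.32 ± 0.17 (0.000149). In double-positive cells it was lower than in double-negative cells by −0.48 ± 0.17 (adjusted p = 0.0329). That small difference was lost without the first (0.102) or second (0.0735) double-positive library, without the first double-negative library (0.194) and without a mean-variance trend (0.0768), in a range of 0.00918 to 0.194. *Eng* did not separate the Pdgfrα+ populations (−0.31, 95% confidence interval −0.69 to 0.07, adjusted p = 0.381) or Pdgfrα-only from double-negative cells (−0.16, interval −0.55 to 0.22, adjusted p = 0.44). Exons of *Eng* overlap those of *Ak1* on the same strand and of *Fpgs* on the other.

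Markers of cells that carry endoglin were present unevenly. The 7 endothelial markers summed to 48.7 and 74.0 in the double-positive libraries, 49.8 and 54.2 in the Pdgfrα-only libraries, 47.2 and 101 in the GFP-only libraries and 34.0 and 129 in the double-negative libraries, with *Emcn* and *Tie1* at the floor in Pdgfrα-only cells. *Tek* was the most abundant on average over the 8 libraries, the measure by which the leading gene of each list below is named, but in double-negative cells *Tek* had 0.718 and 6.25, below *Cdh5* with 11.6 and 48.0, and in double-positive cells its mean of 20.2 was below the 25.0 of *Cdh5*. Between the Pdgfrα- populations 1 was higher in GFP-only cells and 0 lower in limma (median −0.50; 0 also at an unadjusted p under 0.05 and in edgeR), between Pdgfrα-only and double-negative cells 1 was higher and 3 lower in Pdgfrα-only cells (median −1.21, or −1.16 with floor genes at their bound), and 0 were called between the Pdgfrα+ populations (median 0.52, or 0.47; 0 also at an unadjusted p under 0.05 and in edgeR). In the first and second double-negative library the endothelial sum was 34.0 and 129, and *Eng* was 76.0 and 61.7. With 2 libraries no relation between them can be read from these values. The 7 erythroid markers, with *Hbb-b1* on top, summed to 11355 and 18850 in the double-negative libraries and to between 34.0 and 141 in the other 6. All 7 were lower in GFP-only than in double-negative cells (median −7.12) and all 7 in Pdgfrα-only than in double-negative cells (median −7.76). Their part in the level of *Eng*, and in the low levels of the other antigens in double-negative cells, was not tested.

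Most other genes of endoglin signalling were, unlike *Eng*, lower in double-negative than in GFP-only cells. Of 22 listed receptors, ligands and target genes of the TGF-β and BMP pathways 20 are in the table, and 17 were higher in GFP-only than in double-negative cells and 1 lower (median 2.15, or 2.02 with floor genes at their bound). The 1 lower gene, named after the values were seen, was the ligand *Tgfb1*, which like *Eng* had its highest mean in double-negative cells, with 41.9, 10.8, 5.72 and 48.2 in double-positive, Pdgfrα-only, GFP-only and double-negative cells. From GFP-only to double-positive cells 8 were higher and 2 lower (median 0.30), and between the Pdgfrα+ populations 2 were higher and 2 lower (median 0.01). The co-receptor *Tgfbr3* had 369 ± 31.6, 421 ± 5.74, 257 ± 12.1 and 66.1 ± 12.4 in double-positive, Pdgfrα-only, GFP-only and double-negative cells, with a difference of 1.96 ± 0.14 between the Pdgfrα- populations (adjusted p = 2.98e-07 in limma). The type II receptor *Tgfbr2* had 172 ± 12.3, 293 ± 16.6, 66.6 ± 9.26 and 15.5 ± 1.42, and differed there by 2.03 ± 0.16 (adjusted p = 4.5e-07). For the BMP receptor *Bmpr1a* the means were 274 ± 40.6, 269 ± 6.00, 220 ± 25.6 and 8.08 ± 1.07, a difference of 4.60 ± 0.16 between the Pdgfrα- populations (adjusted p = 8.88e-10). *Bmpr2*, which partners it, had 226 ± 13.9, 224 ± 10.1, 185 ± 4.91 and 37.5 ± 4.12.

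*Alcam* (ENSMUSG00000022636, chr16:52249109-52454187, minus strand) encodes CD166, an adhesion molecule that binds itself and CD6. Its values were 20.9 and 27.5 in the double-positive libraries, 7.44 and 10.2 in the Pdgfrα-only libraries, 51.8 and 54.2 in the GFP-only libraries and 1.01 and 0.825 in the double-negative libraries. The GFP-only libraries were highest, both double-negative libraries were at the floor with 3 reads each, and no populations overlapped. *Alcam* is the only antigen of the 9 whose mean was highest in GFP-only cells, and it is 1 of the 2 that separated every pair. It was higher in GFP-only than in Pdgfrα-only cells (−2.47 ± 0.30 for Pdgfrα-only minus GFP-only, adjusted p = 7.37e-05 in limma), a call that held under all alternatives. Higher in double-positive than in Pdgfrα-only cells by 1.36 ± 0.30 (adjusted p = 0.021), it was lower in double-positive than in GFP-only cells, by −1.11 ± 0.30 (0.0176). The first of those calls was lost without the first (0.0611) or second (0.134) double-positive library, the first (0.166) or second (0.072) Pdgfrα-only library and the first (0.0604) or second (0.0609) GFP-only library, within a range of 0.00568 to 0.166. The second was lost without the first double-positive library (0.105) and without the first (0.1) or second (0.112) GFP-only library, within 0.00118 to 0.112. Over double-negative cells the ratio of summed reads was 68.0 in GFP-only cells (95% exact interval 31.0 to 186), 30.8 in double-positive cells (13.9 to 85.2) and 11.1 in Pdgfrα-only cells (4.81 to 31.3), all called in limma with adjusted p of 7.07e-08, 4.74e-07 and 2.49e-05.

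Sums of markers of pericytes and of nerve and muscle precursors were, like *Alcam*, highest in GFP-only cells, which was not so for every gene. The 7 pericyte and smooth muscle markers summed to 534 and 438 in the double-positive libraries, 384 and 399 in the Pdgfrα-only libraries, 2252 and 2908 in the GFP-only libraries and 83.2 and 128 in the double-negative libraries, with *Rgs5* on top and none at the floor. *Cspg4* was the one of the 7 not highest in GFP-only cells, with means of 175, 257, 125 and 19.1 in double-positive, Pdgfrα-only, GFP-only and double-negative cells. From GFP-only to double-positive cells 6 of the 7 were lower and 0 higher in limma (median −2.76; 0 also at an unadjusted p under 0.05 and in edgeR), and from Pdgfrα-only to double-positive cells 4 were higher and 0 lower (median 1.16; 0 also at an unadjusted p under 0.05 and in edgeR). The 9 Schwann precursor markers, led by *Ngfr*, summed to 202 and 184 in double-positive, 79.3 and 90.1 in Pdgfrα-only, 487 and 444 in GFP-only and 26.9 and 43.5 in double-negative libraries. *Ngfr*, the leading gene, ran against these sums, with means of 102, 54.3, 28.5 and 2.58 in double-positive, Pdgfrα-only, GFP-only and double-negative cells, and so did *S100b*, named after the values were seen, with 11.6 in Pdgfrα-only and 3.59 in GFP-only cells. Of these 9, 7 were lower and 1, *Ngfr*, was higher in double-positive than in GFP-only cells (median −2.09), and 5 were higher in double-positive than in Pdgfrα-only cells and 0 lower in limma (median 1.54, or 1.09 with floor genes at their bound; 0 also at an unadjusted p under 0.05 and in edgeR). *Sox10*, *Foxd3* and *Cdh19* were at the floor in Pdgfrα-only cells and *Foxd3* and *Cdh19* also in double-negative cells. The 5 muscle precursor markers, led by *Pax7*, summed to 700 and 721 in the GFP-only libraries, 24.4 and 30.9 in the double-positive libraries and at most 7.32 in the other 4, where all 5 were at the floor in Pdgfrα-only cells and *Myf5*, *Myod1* and *Cdh15* in double-negative cells. All 5 were lower in double-positive than in GFP-only cells (median −4.41), and 3 were higher in double-positive than in Pdgfrα-only cells (median 1.68, or 1.33). The 5 muscle fibre markers, with *Myh8* on top and *Ckm* at the floor in double-negative cells, summed to 154 and 137 in the GFP-only libraries, 38.8 and 49.3 in double-positive, 39.2 and 32.5 in Pdgfrα-only and 20.5 and 13.1 in double-negative libraries. Of these, 3 were lower in double-positive than in GFP-only cells (median −1.04), and none was called between the Pdgfrα+ populations in limma (median 0.07; 1 higher at an unadjusted p under 0.05 and 0 in edgeR). Between Pdgfrα-only and double-negative cells, *Alcam* was higher in Pdgfrα-only cells and at the floor in double-negative cells. In that comparison 32.9% of all genes were higher and 26.8% lower in Pdgfrα-only cells. Of the pericyte markers 3 were higher and 2 lower in Pdgfrα-only cells (median 0.50), of the Schwann precursor markers 2 were higher and 0 lower in limma (median 0.00, or 0.03 with floor genes at their bound; 1 lower at an unadjusted p under 0.05 and 0 in edgeR), and of the muscle precursor markers 0 were higher and 1 lower in limma (median −0.27, or 0.03; 0 higher also at an unadjusted p under 0.05 and in edgeR). Among the muscle fibre markers 4 of 5 were higher in Pdgfrα-only cells and 0 lower in limma (median 1.11, or 0.87, with 0 lower also at an unadjusted p under 0.05 and in edgeR). The part of these markers in the level of *Alcam* was not tested.

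*Cd200* (ENSMUSG00000022661, chr16:45382248-45409166, minus strand) encodes a ligand whose receptor restrains myeloid cells. Its values were 187 and 129 in the double-positive libraries, 30.9 and 25.1 in the Pdgfrα-only libraries, 36.5 and 45.4 in the GFP-only libraries and 1.87 and 6.01 in the double-negative libraries. The double-positive libraries were far above all others, the single-positive populations lay close together without overlap, and the double-negative libraries were lowest and differed from each other by more than a factor of 3. *Cd200* was higher in double-positive than in Pdgfrα-only cells by 2.44 ± 0.36, a 5.65-fold higher mean (adjusted p = 0.00211 in limma), and higher in double-positive than in GFP-only cells by 1.91 ± 0.36 (0.00214). Against double-negative cells the difference was 5.12 ± 0.36 for double-positive (adjusted p = 1.26e-07), 3.22 ± 0.36 for GFP-only (9.83e-06) and 2.69 ± 0.36 for Pdgfrα-only cells (3.49e-05). None of these 5 calls was lost in any alternative. The single-positive populations were not separated (−0.53 for Pdgfrα-only minus GFP-only cells, 95% confidence interval −1.31 to 0.24, adjusted p = 0.304).

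Counter-receptors and ligands were measured in part. Of 13 listed for the antigens 8 are in the table, and none was called between the Pdgfrα+ populations in limma (median −0.12; at an unadjusted p under 0.05, 1 was higher and 2 lower, and edgeR called 1 lower). Between the Pdgfrα- populations 4 were higher in GFP-only cells and 0 lower (median 1.50; 0 also at an unadjusted p under 0.05 and in edgeR), and within the GFP+ populations 0 were higher in double-positive cells and 2 lower (median −0.14, or −0.26 with floor genes at their bound; 1 higher at an unadjusted p under 0.05 and 1 in edgeR). The integrin subunit *Itgb3*, part of a receptor for CD90, had 92.8 ± 0.635 in double-positive, 134 ± 14.2 in Pdgfrα-only, 42.5 ± 0.854 in GFP-only and 6.06 ± 7.07 in double-negative cells. It was higher in GFP-only than in double-negative cells by 3.12 ± 0.55 (adjusted p = 0.000452 in limma), but the double-negative libraries had 11.1 and 1.06, and the difference was 4.40 without the first and 1.85 without the second of them. *Gfra1*, a GPI-anchored receptor for GDNF, was highest in GFP-only cells at 50.1 ± 11.6, against 1.60 ± 1.24 in double-negative cells, a difference of 4.37 ± 0.39 (adjusted p = 1.64e-06). The syndecan *Sdc4* lay between 12.5 ± 6.50 and 101 ± 9.39 and the galectin *Lgals8* between 27.7 ± 6.05 and 48.0 ± 1.69. *Cd200r3*, a gene of the CD200 receptor family, was at the floor in both Pdgfrα- populations.

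*Cdh2* (ENSMUSG00000024304, chr18:16747386-16967755, minus strand) encodes N-cadherin. Its values were 367 and 255 in the double-positive libraries, 51.6 and 42.6 in the Pdgfrα-only libraries, 46.0 and 52.9 in the GFP-only libraries and 2.44 and 2.48 in the double-negative libraries. The double-positive libraries were above all others, the single-positive libraries were interleaved, and the double-negative libraries were alike and lowest. *Cdh2* was higher in double-positive than in Pdgfrα-only cells by 2.68 ± 0.21, a mean 6.61-fold higher (adjusted p = 3.34e-05 in limma), and than in GFP-only cells by 2.61 ± 0.21 (4.9e-06). Over double-negative cells it was higher by 6.47 ± 0.21 in double-positive cells (adjusted p = 3.28e-10), a ratio of means of 127, by 3.86 ± 0.21 in GFP-only cells (2.77e-08) and by 3.79 ± 0.21 in Pdgfrα-only cells (1.84e-08). No alternative ended any of these 5 calls. The Pdgfrα-only and GFP-only cells were not separated by N-cadherin (−0.07, 95% confidence interval −0.54 to 0.39, adjusted p = 0.847), and the sign of that difference turned without the second Pdgfrα-only library (0.063) or the second GFP-only library (0.026).

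*Cdh11* (ENSMUSG00000031673, chr8:105156895-105309011, minus strand) encodes the cadherin first known from osteoblasts. Its values were 658 and 518 in the double-positive libraries, 308 and 275 in the Pdgfrα-only libraries, 42.1 and 56.2 in the GFP-only libraries and 14.5 and 10.5 in the double-negative libraries. They formed 4 steps with no overlap, and the widest of these lay between the Pdgfrα+ and the Pdgfrα- populations. *Cdh11* was higher in double-positive than in GFP-only cells by 3.56 ± 0.20 (adjusted p = 3.3e-07 in limma), in Pdgfrα-only than in double-negative cells by 4.45 ± 0.20 (2.34e-09) and in Pdgfrα-only than in GFP-only cells by 2.55 ± 0.20 (1.84e-06). The mean in double-positive cells was 47.0 times that in double-negative cells, a difference of 5.45 ± 0.20 (adjusted p = 5.98e-10), and GFP-only cells were above double-negative cells by 1.90 ± 0.20 (5.56e-06). The step between the Pdgfrα+ populations, 1.00 ± 0.20 (adjusted p = 0.0111 in limma), was lost without the first double-positive library (0.114), the first (0.0774) or second (0.131) Pdgfrα-only library and without a mean-variance trend (0.0972), within a range of 0.000256 to 0.131. Of the windows of 30 bases in its exons 6.45% also occur in the annotated gene *Gm6483*; for the other antigens apart from *Ly6a* that share is at most 0.378%.

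Among 23 listed cadherins 15 are in the table, these 2 included. Of these, 11 were higher in GFP-only than in double-negative cells and 0 lower (median 1.90, or 1.82 with floor genes at their bound; 0 also at an unadjusted p under 0.05 and in edgeR). Within the GFP+ populations, where both of these cadherins were higher in double-positive cells, 3 of the 15 were higher and 7 lower in limma, and 3 higher and 4 lower in edgeR (median −0.82, or −0.33), and between the Pdgfrα+ populations 4 were higher and 2 lower (median 0.15). *Cdh13*, the GPI-anchored T-cadherin, was one with the opposite course, with 17.5 ± 3.48 in double-positive, 55.0 ± 13.3 in Pdgfrα-only, 115 ± 9.30 in GFP-only and 4.25 ± 2.16 in double-negative cells. Its difference between double-positive and GFP-only cells was −2.66 ± 0.30 (adjusted p = 4.97e-05 in limma). *Cdh5*, the cadherin of endothelium, had 25.0 ± 12.5, 13.1 ± 4.02, 14.6 ± 10.5 and 29.8 ± 25.7 in double-positive, Pdgfrα-only, GFP-only and double-negative cells and was called for no pair. In double-negative cells 9 of the 15 were at the floor. Of 13 listed catenins and cadherin partners, which tie cadherins to actin, 12 are in the table. In GFP-only cells 10 were higher than in double-negative cells and 0 lower (median 1.23, or 1.06 with floor genes at their bound; 0 also at an unadjusted p under 0.05 and in edgeR), within the GFP+ populations 2 were higher in double-positive cells and 5 lower in limma, and 2 higher and 3 lower in edgeR (median −0.50), and between the Pdgfrα+ populations 1 was higher and 1 lower (median 0.10). β-catenin (*Ctnnb1*) had 692 ± 118, 373 ± 17.3, 414 ± 4.26 and 217 ± 15.3 in the same order, and was higher in GFP-only than in double-negative cells by 0.93 ± 0.13 (adjusted p = 8.87e-05 in limma). *Ctnnd1* (p120-catenin) had 339 ± 44.2, 294 ± 0.197, 393 ± 15.2 and 109 ± 2.23, with a difference of 1.84 ± 0.13 in that comparison (adjusted p = 1.64e-07). *Vcl* (vinculin) lay between 119 ± 21.5 and 221 ± 26.7 and *Ctnna1* (α-catenin) between 97.5 ± 13.7 and 148 ± 14.5.

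Osteoblast markers were, like *Cdh2*, *Cdh11* and *Cd200*, highest in double-positive cells. All 7 were higher in double-positive than in Pdgfrα-only cells (median 3.48) and all 7 higher in double-positive than in GFP-only cells (median 3.58). Between the single-positive populations, where *Cdh11* was higher in Pdgfrα-only cells by 2.55, 2 of them were higher and 3 lower in Pdgfrα-only cells (median −0.09). They summed to 54929 and 40879 in the double-positive libraries, 17033 and 15505 in the Pdgfrα-only libraries, 3378 and 2809 in the GFP-only libraries and 466 and 596 in the double-negative libraries, with *Col1a1* the most abundant and *Bglap* at the floor in double-negative cells. Tendon fibroblast markers ran the other way between the Pdgfrα+ populations, where *Ly6a* was also lower in double-positive cells. All 5 were lower in double-positive than in Pdgfrα-only cells (median −3.10), and 4 were higher and 1 lower in double-positive than in GFP-only cells (median 2.44, or 2.02 with floor genes at their bound). Their sums were 182 and 156 in double-positive, 1589 and 1677 in Pdgfrα-only, 18.6 and 19.9 in GFP-only and 56.2 and 88.3 in double-negative libraries, with *Fmod* on top, *Scx* at the floor in double-positive and double-negative cells and *Kera* in GFP-only cells. Of the 5 chondrocyte markers, 2 were lower in double-positive than in Pdgfrα-only cells (median −1.53) and 2 higher in double-positive than in GFP-only cells (median 0.59). They summed to 283 and 362 in double-positive, 534 and 1868 in Pdgfrα-only, 66.4 and 95.1 in GFP-only and 481 and 891 in double-negative libraries, led by *Col2a1*, with *Matn1* at the floor in all populations except double-negative. The 7 measured blood cell markers of 10 listed, led by *Lyz2*, summed to 63.6 and 56.5 in the double-negative libraries and to at most 20.8 in the others. Of these, 5 were lower in Pdgfrα-only than in double-negative cells (median −1.68, or −1.22), and 1 was lower in double-positive than in Pdgfrα-only cells (median 0.11, or −0.01), with *Ptprc*, *Cd79a*, *Csf1r* and *Elane* at the floor in Pdgfrα-only cells, *Mpo* in double-positive cells and *Elane* also in GFP-only cells. Only 2 of 6 neuron markers are in the table, *Tubb3* and *Prph*, which summed to at most 3.87 in any library. In double-positive cells *Tubb3* was higher and *Prph* lower than in Pdgfrα-only cells in limma (median 0.02, or 0.03; 1 higher and 1 lower also at an unadjusted p under 0.05, but 0 and 0 in edgeR), and *Tubb3* was at the floor in the other 3 populations and *Prph* in all but Pdgfrα-only cells. The part of any of these markers in the differences of the antigens was not tested.

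For most antigens the GFP difference was not the same between the Pdgfrα+ populations as between the Pdgfrα- populations. The interaction, defined as the GFP difference in Pdgfrα+ cells minus that in Pdgfrα- cells, was called for 8 of the 9 antigens. For *Ly6a* that call (adjusted p = 0.0335 in limma) was lost in 8 of 15 alternatives, for *Cdh11* (0.0204) in 5 and for *Cdh2* (0.0072) in 1, voom. It was negative for 7, beside 25.2% of all genes, and positive for 1, *Eng*, beside 19.1%. The median over the 9 was −1.18 and over all genes −0.16. The GFP difference in Pdgfrα- cells has the double-negative libraries as its baseline. Their erythroid markers summed to 11355 and 18850, against at most 141 in any other library. The part of that make-up in the interaction was not tested. The largest values belonged to *Alcam*, at −3.46 ± 0.42 (adjusted p = 3.98e-05 in limma), and to *Thy1*, at −3.09 ± 0.62 (0.00164), both of which are at the floor in double-negative cells, so that their size depends on the offset of 1 added before the logarithm. *Cd200* was not called, with −0.78 (95% confidence interval −1.88 to 0.32, adjusted p = 0.234), although without the second double-negative library it was, with −1.43 (0.00722, in a range of 0.00722 to 0.789).

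Levels of different genes can be compared only per length of transcript. On the scale of value per kilobase of annotated exon, *Cdh11* led in double-positive cells at 139, ahead of *Cd44* at 61.3, *Cd200* at 47.6, *Ly6a* at 40.1 and *Cdh2* at 38.6. *Eng* at 12.6, *Thy1* at 11.2, *Nt5e* at 6.11 and *Alcam* at 3.39 followed on the same scale. With the longest transcript as the length, *Cdh2* stood at 64.3 and *Cd200* at 67.3, close to *Cd44* at 74.8. In Pdgfrα-only cells the level per kilobase was highest for *Ly6a*, at 153, then *Cd44* at 83.5 and *Cdh11* at 69.1, with the other 6 between 1.24 and 15.8. In GFP-only cells *Cd44* came first at 38.1 per kilobase, then *Cd200* at 12.3 and *Cdh11* at 11.7, and *Ly6a* last at 0.911. In double-negative cells *Cd44* at 27.7 and *Eng* at 17.8 per kilobase were the only antigens above 3, and *Alcam* at 0.129 was lowest. Summed over the 9 antigens without regard to length, the value was 1781 and 1468 in the double-positive libraries, 1273 and 1122 in the Pdgfrα-only libraries, 481 and 514 in the GFP-only libraries and 310 and 258 in the double-negative libraries.

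The antigens fell into profiles that ran together or apart over the 8 libraries. As a description, Pearson's r of log2(value + 1) was 0.98 for *Cd200* and *Cdh2*, 0.947 for *Cd44* and *Nt5e* and 0.924 for *Ly6a* and *Cd44*. *Cdh2* and *Cdh11* had r = 0.901. For *Ly6a* and *Alcam* r was 0.025, and *Alcam* and *Eng* were opposed at −0.84. The libraries form 4 populations, so that these coefficients describe the order of the populations and have no p-value. Among 9018 genes with a mean of at least 10, the 3 closest to *Ly6a* over the same 8 libraries were *Zfp385a* (0.995), *Clcf1* (0.995) and *Lrrn4cl* (0.992), and those closest to *Thy1* were *Itsn1* (0.991), *Erc1* (0.990) and *Agphd1* (0.990). Close to *Nt5e* were *Clu* (0.990) and *Ddah1* (0.987), and closest to *Cd44* were *Boc* (0.995), *Tbkbp1* (0.993) and the tetraspanin *Cd81* (0.992). *Eng* was followed most closely by *Stim1* (0.985), *Fuca2* (0.984) and *Ttc7* (0.982), and *Alcam* by *Trp53inp2* (0.998), *Pgm5* (0.997) and *Scrn1* (0.992). *Cd200* had *Rbpms* (0.990), *Gprc5c* (0.988) and *Pard6g* (0.987) nearest to it, *Cdh2* had *Pard6g* (0.995), *Ptk2* (0.993) and *Rcor2* (0.992), and *Cdh11* had *Fat3* (0.997), *Sec31a* (0.997) and *Mmp23* (0.995). The polarity gene *Pard6g* is the one gene named for 2 antigens, *Cd200* and *Cdh2*.

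Promoters are shown for 4 antigens chosen among those matched in the sequence set after the profiles were seen. Of the matched antigens *Cd44* and *Nt5e* had the highest r and *Alcam* and *Eng* the lowest, while the pair with the highest r of all 9, *Cd200* and *Cdh2*, is not shown. The sequences are from RefSeq (mouse build GRCm38.p6, a later build than that of the gene positions above), 300 bases each from 250 before to 50 after the annotated start, and 5 of the 9 antigens were matched in that set. They lie at chr2:102901616-102901915 (minus strand) for *Cd44*, chr9:88327359-88327658 (plus strand) for *Nt5e*, chr16:52453032-52453331 (minus strand) for *Alcam* and chr2:32646345-32646644 (plus strand) for *Eng*. Capitals mark matches on either strand to the GC box, spelled GGGCGG, which binds factors of the Sp family. The core promoter element known as the TATA box was searched as TATAAA, and the core of Runx binding sites, found in osteoblast genes, as TGTGGT.
Cd44: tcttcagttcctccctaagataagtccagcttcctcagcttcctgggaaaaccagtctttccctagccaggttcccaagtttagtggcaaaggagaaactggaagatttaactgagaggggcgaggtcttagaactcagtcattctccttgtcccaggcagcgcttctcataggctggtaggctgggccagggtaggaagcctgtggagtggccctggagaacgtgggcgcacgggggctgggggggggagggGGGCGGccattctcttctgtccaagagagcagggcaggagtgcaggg
Nt5e: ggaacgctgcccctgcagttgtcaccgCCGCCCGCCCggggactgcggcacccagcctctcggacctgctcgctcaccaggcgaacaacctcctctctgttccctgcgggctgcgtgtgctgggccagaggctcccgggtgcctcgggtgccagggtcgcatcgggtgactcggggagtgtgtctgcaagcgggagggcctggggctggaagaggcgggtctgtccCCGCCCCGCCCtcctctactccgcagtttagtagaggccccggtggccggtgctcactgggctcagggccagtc
Alcam: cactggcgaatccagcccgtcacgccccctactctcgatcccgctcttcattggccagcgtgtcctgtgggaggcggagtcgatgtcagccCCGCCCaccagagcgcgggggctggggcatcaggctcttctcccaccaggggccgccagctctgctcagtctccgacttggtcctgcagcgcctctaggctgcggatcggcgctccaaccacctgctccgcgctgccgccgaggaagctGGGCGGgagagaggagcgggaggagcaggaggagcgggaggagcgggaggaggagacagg
Eng: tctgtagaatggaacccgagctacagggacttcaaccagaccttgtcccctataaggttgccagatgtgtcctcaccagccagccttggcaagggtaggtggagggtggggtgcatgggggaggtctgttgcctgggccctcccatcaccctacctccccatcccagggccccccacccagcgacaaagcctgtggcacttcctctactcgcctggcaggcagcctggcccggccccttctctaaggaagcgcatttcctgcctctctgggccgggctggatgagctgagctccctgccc
The GC box occurs 1 time in the *Cd44* promoter, 4 times in that of *Nt5e*, 2 times in that of *Alcam* and 0 times in that of *Eng*, and it is present in 35.7% of all 32851 promoters of this length. Neither the TATA box, held by 13.6% of all promoters, nor the Runx core, held by 16.8%, occurs in the 4 windows. GC content was 58% for *Cd44*, 71% for *Nt5e*, 69.7% for *Alcam* and 63.3% for *Eng*, beside a median of 52.7% over all promoters. A match is a description of the letters and says nothing about a factor bound there.

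Other antigens used for the same cells followed the 9 in part. Of 36 listed, 35 are in the table. Within the GFP+ populations 17 were higher in double-positive cells and 3 lower (median 0.48), between the Pdgfrα+ populations 4 were higher and 4 lower in limma and 6 and 6 in edgeR (median −0.16), between the Pdgfrα- populations 23 were higher in GFP-only cells and 3 lower (median 2.44), and between the single-positive populations 19 were higher in Pdgfrα-only cells and 6 lower (median 1.01, or 0.93 with floor genes at their bound). *Vim*, the intermediate filament vimentin, had 1567 ± 41.5 in double-positive, 2269 ± 159 in Pdgfrα-only, 1449 ± 15.6 in GFP-only and 75.3 ± 6.38 in double-negative cells, and differed between the Pdgfrα- populations by 4.25 ± 0.11 (adjusted p = 2.64e-10 in limma). *Cd81* had 475 ± 32.2, 609 ± 8.10, 301 ± 18.2 and 250 ± 21.7 in the same order, higher in Pdgfrα-only than in GFP-only cells by 1.01 ± 0.12 (adjusted p = 6.27e-05). *Ncam1* (CD56), like *Alcam* highest in GFP-only cells, had 148 ± 22.3, 204 ± 14.4, 316 ± 19.1 and 7.80 ± 1.48, and differed by −1.10 ± 0.17 between double-positive and GFP-only cells (adjusted p = 0.00056 in limma). The integrin subunit *Itgb1* (CD29) varied least of these, between 320 ± 53.4 and 513 ± 20.1.

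Antigens whose absence is part of the definition were mostly low outside double-negative cells, with 1 exception. Of 12 listed, 10 are in the table. None was called between the Pdgfrα+ populations in limma (median 0.05, or 0.01 with floor genes at their bound; 0 also at an unadjusted p under 0.05 and in edgeR), 1 was higher and 1 lower in double-positive than in GFP-only cells (median −0.43, or −0.15), and 1 was higher and 4 lower in GFP-only than in double-negative cells (median −1.04). The exception was *Cd34*, with 197 ± 24.1 in double-positive, 219 ± 23.1 in Pdgfrα-only, 95.4 ± 6.38 in GFP-only and 5.39 ± 2.55 in double-negative cells, higher in GFP-only than in double-negative cells by 3.97 ± 0.24 (adjusted p = 4.92e-08 in limma). *Kit*, the receptor of blood stem and mast cells, had 306 ± 56.9 in double-negative cells against 11.2 ± 2.90 in GFP-only cells, a difference of −4.67 ± 0.31 (adjusted p = 1.25e-07). *Cd14* was at the floor in all populations except double-negative, and *H2-Ab1* in Pdgfrα-only and GFP-only cells.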

How the data were processed

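RNA of 8 libraries, 2 for each of 4 sorted populations, was compared. The authors trimmed adaptors with cutadapt, quantified reads with RSEM 1.17 on the transcriptome of NCBIM37 (Ensembl gene-build 65), filtered genes at more than 2 cpm in at least 2 samples, and ran voom of limma for normalization. The deposited values are a normalized signal on a linear scale. Whole reads were recovered from 100% of them within 0.1 read, and from those reads 1645 genes lie below the stated filter. RSEM estimates need not be whole, and which step rounded them is not stated. Median depth was 3604130 reads, the normalization factor lay between 0.8 and 1.13, and the common coefficient of variation was 0.188 in edgeR. Identifiers of 15849 of 15880 genes matched the annotation.

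The design was written for several possible units, and the variant for unlogged normalized values applied. Values entered limma 3.58.1 in R 4.3.3 as log2(value + 1), with 1 coefficient per population, a trend of variance with mean, and p-values adjusted by Benjamini and Hochberg's method over the whole table, for 6 pairs of populations, their interaction and the moderated F. On the recovered reads, edgeR 4.0.16 called 893 genes between the Pdgfrα+ populations, 8415 between the Pdgfrα-, 3586 between the GFP+ and 9281 between the GFP- populations, 9240 and 4182 on the diagonals, 6644 for the interaction and 10084 over all 4 populations. The fits were tested on simulated data, whose outcome is not reported here. Tables and figures used Python 3.11.15, numpy 2.4.6, pandas 2.3.3 and matplotlib 3.10.9.

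The study describes each set of samples as taken from pooled littermates, so equal replicate numbers were read as 1 pool. After subtracting population means, libraries of equal number were correlated at 0.0127 to 0.161 over 9018 genes, and a fit with the replicate as a block is among the alternatives. The others were a pseudocount of 0.1, a filter on values above 2 in at least 2 libraries, no mean-variance trend, each library centred on its median, voom, edgeR, and leaving out each library. Leaving out both double-negative libraries was added after the data had been seen. With 1 library left in a population, that library is assumed to vary like the others. Level per kilobase was also computed with the longest transcript.

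The antigens and gene lists (sort gate, other antigens, antigens that should be absent, Ly6 family, endoglin signalling, adenosine, hyaluronan and CD44 partners, ligands and counter-receptors, cadherins, catenins, GPI-anchor synthesis, and markers of Schwann precursors, osteoblasts, chondrocytes, tendon fibroblasts, pericytes, endothelium, muscle precursors, muscle fibres, blood, red cells and neurons) were chosen with earlier results of these data known. Named genes are the 9 antigens, up to 4 genes of each list with the highest mean, every gene of a list of 5 or fewer, and the 3 closest genes of each antigen; genes named as being at the floor come from the lists. Results of some genes that meet this rule are not reported. The comparisons for which a fold of a list gene is printed were chosen after the values had been seen.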

Additional observations from a re-analysis of the deposited data

Results flagged for a closer look

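For 8 of the 9 antigens the GFP difference in Pdgfrα+ cells was not the same as that in Pdgfrα- cells by the interaction in limma. Of all genes, 25.2% had a called negative and 19.1% a called positive interaction. Double-negative cells are the baseline of the GFP difference in Pdgfrα- cells, and the part of their make-up was not tested. *Alcam* had the largest gap, −3.46 (adjusted p = 3.98e-05), being higher with GFP in both settings but by less among Pdgfrα+ cells. *Thy1* differed by −3.09 (adjusted p = 0.00164). *Nt5e* differed by −1.98 (0.00635), with opposite signs of the 2 GFP differences, of which only the one in Pdgfrα- cells was called. *Cd44* gave −0.91 (0.00168) and likewise had opposite signs. *Cdh2* gave −1.18 (0.0072), a value that in voom was no longer called (0.063, in a range of 0.00229 to 0.063). *Eng* was the one antigen with a positive value, 1.171 (0.00221), since its GFP difference was −0.31 in Pdgfrα+ and −1.48 in Pdgfrα- cells.

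The interaction calls of *Ly6a* and *Cdh11* were lost in several alternatives, with and without a library left out. *Ly6a* gave −1.40 (adjusted p = 0.0335 in limma), and the call was lost without the second double-positive library (0.113), the first Pdgfrα-only library (0.16), the first (0.0812) or second (0.0538) GFP-only library and the first double-negative library (0.0889), and with a pseudocount of 0.1 (0.192), voom (0.522) or edgeR (0.57), within a range of 0.0165 to 0.57. *Cdh11* gave −0.89 (adjusted p = 0.0204 in limma), and the call was lost without the second double-positive library (0.0896), the first Pdgfrα-only library (0.0847), the second GFP-only library (0.0993) or the second double-negative library (0.0579) and without a mean-variance trend (0.0908), within a range of 0.00546 to 0.0993.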

How the results depend on the processing

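For 72 results of the 9 antigens and 15 alternatives each, 1025 of 1080 kept their direction and their side of the threshold, 48 lost the call, 4 gained one and 3 changed sign. Of the 45 called pairs, 35 kept the call under each of the 15 and 0 changed sign. The 3 changes of sign concern differences that were not called: *Thy1* between the Pdgfrα+ populations (from −0.89 without the first double-positive library to 0.085 without the second), and *Cdh2* between the single-positive populations (0.063 without the second Pdgfrα-only library and 0.026 without the second GFP-only library, from a lowest value of −0.21 without the first Pdgfrα-only library). With the replicate as a block, the call of *Thy1* between the single-positive populations was lost (adjusted p = 0.0501 in limma, against a range of 0.0185 to 0.344 over its alternatives), and the pairing of libraries ended no other call of an antigen. Leaving out both double-negative libraries, added after the data had been seen, kept 26 of 27 results and added the call of *Cd44*.

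Between the Pdgfrα+ populations 849 genes and 5 antigens were called. Without a mean-variance trend 532 genes were, and over fits that each left out 1 library the counts lay between 246 and 1083 genes and between 2 and 6 antigens. With such fits the genes called within the GFP+ populations numbered from 2158 to 4056, against 3848, and between the single-positive populations from 2757 to 4642, against 4427. The fits without 1 library have fewer samples; the cause was not tested otherwise. Depth limits what can be said of *Ly6a* in Pdgfrα- cells and of *Thy1* and *Alcam* in double-negative cells, where ratios rest on 11 reads or fewer.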

Other observations

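The spread between the 2 libraries of a population differed among the antigens. *Cd44* had values of 261 and 262 in GFP-only cells and *Cdh2* 2.44 and 2.48 in double-negative cells, whereas *Thy1* had 6.19 and 14.0 in GFP-only cells. In double-positive cells *Thy1*, *Nt5e*, *Cd200*, *Cdh2*, *Cdh11* and *Ly6a* were higher in the first library, and *Alcam*, *Cd44* and *Eng* in the second. Whether these differences between pools recur was not tested.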
